A study of Mus musculus with 4 samples.

Results

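The genes described here are the cytoplasmic ribosomal protein genes of mouse embryonic stem (ES) cells, 80 of the 46078 mouse gene rows in the count tables. They were chosen by name alone, as protein-coding genes of GENCODE M21 whose symbol is Rpl or Rps followed by a number and an optional letter, together with Rplp0, Rplp1, Rplp2 and Rpsa. Pseudogenes and the S6 kinases were left out, and 2 further symbols of this form are annotated as pseudogenes. By subunit, 46 of the genes belong to the large subunit, 31 to the small subunit and 3 to the stalk of the large subunit. They lie on 19 chromosomes, 4 of them on chromosome X.

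Wild-type ES cells had been grown in 2i, whose MEK and GSK3 inhibitors keep them in the naive state. By the study's methods this medium also held leukemia inhibitory factor (LIF). The cells were sorted by size on light scatter. A gate for small cells, taken to hold cells leaving mitosis or in G1, was compared with cells sorted with no gate. Both were then kept for 6 h on laminin in 2i or in N2B27. By the study's methods N2B27 alone is without the inhibitors and LIF, and naive pluripotency is lost in it. Single cells were sequenced by Smart-seq2, which reads along the whole transcript and carries no molecular identifiers. This gave 24 cells in each of 4 samples, small and ungated cells in 2i and small and ungated cells in N2B27. The labels give no line beyond ES cells, while the study's methods list a wild-type line, E14, among the cells used, and the groups differ in no treatment named there other than medium and gate.

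Each combination of medium and gate was 1 sample, so no difference has a replicate check and no test was made between groups. The cells are not replicates, and the ranges over cells given here describe these 4 samples. All 2i cells were in a library pool and sequencing lane of their own, as were all N2B27 cells, so pool, lane and medium cannot be told apart. In each pool the small cells and the ungated cells carried different row indices. The same 48 index pairs occurred in both tables.

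Ribosomal proteins are the protein parts of the ribosome, in which the small subunit reads the messenger RNA and the large subunit joins the amino acids. Their messenger RNAs are short, abundant and mostly carry at their first bases a run of C and T, the terminal oligopyrimidine (TOP) tract, through which growth signals by way of mTOR set their translation. Mammalian genomes also hold many processed pseudogenes, intronless copies made from ribosomal protein messenger RNA.

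The filter on cells kept 75 of 96, namely 12 small and 22 ungated cells in 2i and 20 small and 21 ungated cells in N2B27, with 1364155 to 4844170 counts on mouse genes per cell. Of the fixed ES cell markers, 10 of 10 passed a mean of 10 CPM, that is, counts for each 1000000 counts on mouse genes, with a summed level between 4306 and 30895 CPM in every kept cell. Of the fixed markers of fibroblasts or feeders 0 of 6 passed, of primitive endoderm 0 of 6 and of trophectoderm 1 of 6. All 6 genes of the first list and all 6 of the second had a median of 0 CPM in every group, and the summed level of the first reached at most 52.7 CPM in a cell and that of the second 214 CPM. In trophectoderm, Cdx2, Eomes, Elf5, Krt7 and Gata3 had a median of 0 and the sum reached 623 CPM. A pair of 2i small cells stood apart, the cell with the highest share of ERCC spike-ins (40.9%, with 4612 genes detected) and the cell with the most genes (15712, with an ERCC share of 0.067%).

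The members differed widely in their counts, and rows of near-identical sequence held more counts than the members themselves. A mean of at least 10 CPM over the kept cells was reached by 76 of the 80 genes, and 70 had a count in every kept cell. The 4 below that level were Rpl3l, Rpl23a, Rpl17 and Rpl24, with 2.64, 1.43, 9.04 and 1.49 CPM. Of these, Rpl3l is the muscle paralog of Rpl3, while the others are general proteins of the large subunit. Per kb of exon, Rpl4 (1793 CPM per kb), Rplp1 (1496) and Rpl32 (1420) were among the 5 highest mean levels. The lowest past the filter were those of Rps13 (5.23 CPM per kb), Rps12 (6.50), Rpl29 (9.99), Rpl9 (10.2) and Rpl12 (10.96).

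To find these rows, the coding sequence of each member was aligned to all GENCODE M21 transcripts, and another gene was counted as a near-identical copy when it matched with at least 95% identity over at least 80% of the coding sequence. By this measure 72 members had a copy and 8 had none, and there were 558 copies. Of these, 445 were rows of the count tables, 423 of them pseudogenes. Over the kept cells, 55 of the 80 members had fewer counts on their own row than on their copies, and 24 had at least 90% of the combined counts on copies.

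The largest sum on copies was that of the stalk protein Rplp0, the anchor of the acidic P-proteins, whose own row held 528 CPM and whose copies held 4566 CPM. Its processed pseudogene Gm8730 alone held 2466 CPM. Rpl23a, a protein at the exit of the peptide tunnel, had 1.43 CPM on its own row and 264 CPM on its copies, of which Rpl23a-ps3 held 149. The first 120 coding bases of both genes are shown beside the matching bases of these pseudogenes, to show how little in the letters separates a read from the gene from a read from the copy. Capitals mark the base at which the pair differs, and 119 of the 120 bases were the same in each pair.
Rplp0: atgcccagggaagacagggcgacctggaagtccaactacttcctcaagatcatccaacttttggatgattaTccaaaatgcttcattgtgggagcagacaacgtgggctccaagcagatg
Gm8730: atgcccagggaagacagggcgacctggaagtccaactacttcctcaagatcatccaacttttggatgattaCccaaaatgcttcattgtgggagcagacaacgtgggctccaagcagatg
Rpl23a: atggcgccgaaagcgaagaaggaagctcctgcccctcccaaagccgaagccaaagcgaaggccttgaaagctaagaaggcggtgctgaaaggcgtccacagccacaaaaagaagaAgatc
Rpl23a-ps3: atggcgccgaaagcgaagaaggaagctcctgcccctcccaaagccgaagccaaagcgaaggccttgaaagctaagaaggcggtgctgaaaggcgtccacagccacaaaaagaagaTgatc

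On GRCm38, Rplp0 lies at chr5:115559467-115563727 on the plus strand and Gm8730 at chr8:102864845-102865798 on the minus strand. Rpl23a lies at chr11:78180932-78183584 on the minus strand and Rpl23a-ps3 at chr14:34170655-34171122 on the plus strand. Of all counts in the tables, 0.0498% stood in the row for alignments that were not unique. Reads of a member and of its copies therefore cannot be told apart with confidence in these tables, and values of members with a copy are uncertain in this sense. Whether counts on a copy came from the member or from the copy was not tested.

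The level per kb of transcript was lower the more copies a gene had, with a Spearman coefficient of -0.44 over 80 genes, which share all libraries. The 8 genes with no copy, among them Rps3, Rps19, Rps27l, Rpl8, Rpl41, Rpl39l and Rpl3l, had a median of 1471 CPM per kb of transcript, and the 17 genes with 10 or more copies a median of 73.7. Rpl21, with 57 copies, had the most. Of the 80 members, 37 share exon bases with another gene of the annotation, small nucleolar RNAs among them, from 51 bases in Rpl10a to 1047 in Rpl5. They include Rpl3, Rpl4, Rpl5, Rpl6, Rpl7a, Rpl10, Rpl10a, Rpl12, Rpl13, Rpl13a, Rpl15, Rpl18, Rpl19, Rpl21, Rpl23a, Rpl24, Rpl27a, Rpl28, Rpl30, Rpl31, Rpl32, Rpl35, Rplp2, Rps2, Rps3, Rps10, Rps12, Rps13, Rps18, Rps20, Rps25, Rps27a, Rps28 and Rpsa. HTSeq by default sets aside reads over such bases as ambiguous, so these genes can be undercounted, and whether strand was used is not given in the sources used here.

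**Figure D1:**
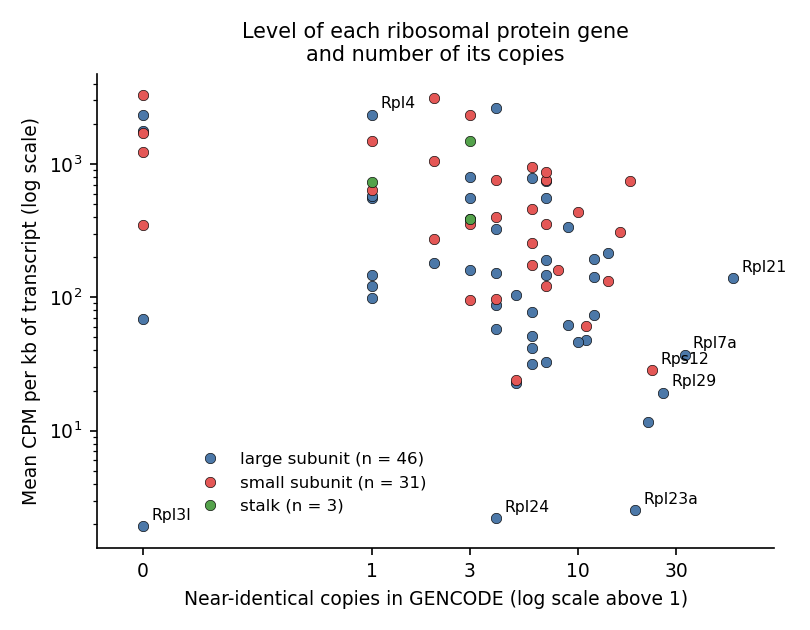
Mean level of each of the 80 genes in CPM per kb of transcript (log axis) against the number of its near-identical copies in GENCODE M21 (log axis above 1), by subunit. The 8 genes without a copy have a median of 1471 CPM per kb and the 17 with 10 or more copies a median of 73.7.

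The share of counts on mouse genes that fell on ribosomal protein genes was higher in small than in ungated cells in both media. In 2i small cells it was 2.94% in the lowest cell, 3.65% at the median and 8.0% in the highest. In 2i ungated cells these values were 2.27%, 2.71% and 3.38%. In N2B27 small cells they were 2.75%, 3.86% and 6.66%, and in N2B27 ungated cells 2.34%, 3.16% and 3.98%. The ranges of small and ungated cells overlapped in both media, more so in N2B27.

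In 2i, 12 of 12 small cells lay above the median of the 22 ungated cells and 9 above every ungated cell, and the medians differed by 0.931 percentage points, or 1.34-fold. In N2B27, 17 of 20 small cells lay above the median of the 21 ungated cells and 8 above every one of them, with medians 0.692 percentage points or 1.22-fold apart. Without the pair of 2i small cells that stood apart, the difference in 2i was 0.900 percentage points. Pooled over the kept cells of a group, the share was 3.96% in 2i small, 2.77% in 2i ungated, 4.01% in N2B27 small and 3.15% in N2B27 ungated. The exact 95% binomial intervals, which cover counting error only, ran from 3.953% to 3.966%, 2.767% to 2.775%, 4.006% to 4.017% and 3.145% to 3.154%.

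The copies followed the genes closely from cell to cell. Each 100 counts on members came with a median of 157, 152, 158 and 154 counts on copies in small and ungated cells in 2i and small and ungated cells in N2B27, between 136 and 182 in every kept cell. The share of members and copies together was therefore 9.48%, 6.95%, 10.1% and 7.97% at the median of the 4 groups, 1.36-fold higher in small than in ungated cells in 2i and 1.26-fold in N2B27. Again 9 of 12 small cells in 2i and 8 of 20 in N2B27 lay above every ungated cell.

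**Figure D2:**
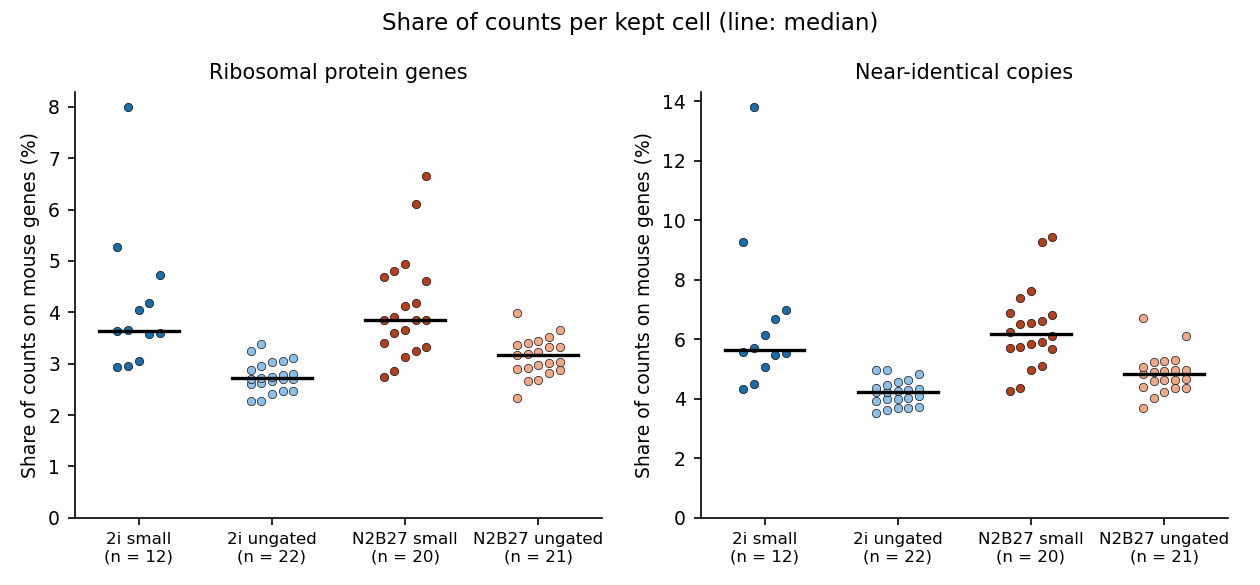
Share of counts on mouse genes (%) held by ribosomal protein genes (left) and by their near-identical copies (right) in each kept cell, by sample, with the median as a line. Small cells have higher medians than ungated cells in both media, and the 2i small cell at 8.0% is the highest of all.

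Small subunit genes differed more than large subunit genes. In 2i the median share of small subunit genes was 2.11% in small and 1.42% in ungated cells, or 1.49-fold, and that of large subunit genes 1.51% and 1.19%, or 1.27-fold. In N2B27 the small subunit share was 1.30-fold and the large subunit share 1.24-fold higher in small cells. The ratio of large to small subunit counts was 0.750 in 2i small cells and 0.824 in 2i ungated cells at the median, with 2 of 12 small cells above the ungated median. In N2B27 it was 0.786 and 0.836, with 5 of 20 above it.

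ERCC spike-ins are RNAs of known sequence added to each cell, and where the amount added is the same their share of counts is higher in a cell that gave less RNA. The amount is not given in the sources used here. The share was 3.47% at the median of 2i small cells, 1.28% in 2i ungated, 2.45% in N2B27 small and 1.14% in N2B27 ungated cells. Among N2B27 small cells, those with a higher ERCC share had a higher ribosomal protein share, with a Spearman coefficient of 0.59 over 20 cells and 0.47 without the 2 cells farthest from the median ERCC share. Among 2i small cells it was 0.51 over 12 cells and 0.35 without 2. Among ungated cells it was 0.17 in 2i over 22 cells and -0.10 in N2B27 over 21. The cells of a group share their lane, and the ERCC counts are outside the total on which the ribosomal protein share rests.

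The number of genes detected ran the other way, with coefficients of -0.48, -0.35, -0.67 and -0.19 in small and ungated cells in 2i and small and ungated cells in N2B27. Set against the spike-ins, small cells held fewer ribosomal protein counts and not more. There were 116 member counts for each 100 ERCC counts at the median of 2i small cells and 210 in 2i ungated cells, and 164 and 253 in N2B27. Thus 3 of 12 small cells in 2i and 5 of 20 in N2B27 lay above the ungated median. The part of RNA content and of depth in the share per cell was not tested.

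**Figure D3:**
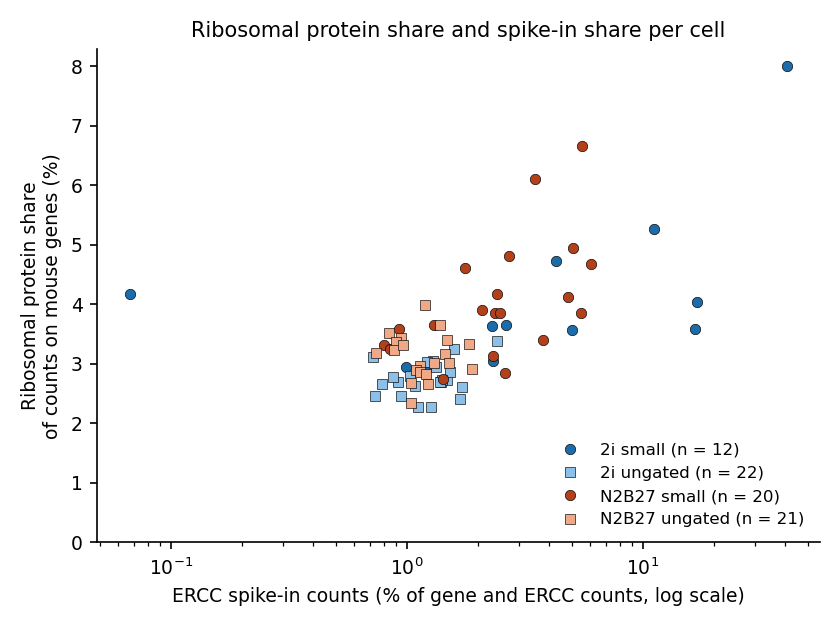
Ribosomal protein share of counts on mouse genes (%) against the ERCC share of gene and ERCC counts (%, log axis) in each kept cell, with circles for small and squares for ungated cells. Ungated cells sit between 0.718% and 2.42% ERCC, and the small cells with the highest ribosomal protein shares lie at higher ERCC shares, with the cell at 0.067% far from the rest.

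Cells called in G1 by their expression had the higher shares among small cells. In N2B27 small cells the median was 4.75% in 6 cells in G1, 3.85% in 11 in S and 3.25% in 3 in G2/M. In 2i small cells it was 3.85% in 6 cells in G1, 3.57% in 5 in S and 2.94% in the 1 cell in G2/M. Among ungated cells, 15 of 22 in 2i and 15 of 21 in N2B27 were called G2/M, with medians of 2.69% and 3.19%. Those in S had 2.73% and 3.21%, and the 2 N2B27 ungated cells in G1 had a median of 3.04%, below both other phases. The ERCC share moved with the phase, from 4.93% in G1 to 1.31% in G2/M at the median of N2B27 small cells. Within S phase alone, small cells were higher than ungated cells by 0.838 percentage points in 2i (5 and 7 cells) and by 0.640 in N2B27 (11 and 4 cells). The phases are read from the same libraries, and the part of the phase in the difference was not tested.

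The cells that the filter had left out fell into 2 kinds. In the 7 with more than 10% mitochondrial counts, ribosomal protein genes held 0.212% to 0.794% of counts, below every kept cell. In the other 14 they held 2.37% to 10.2%. With all 96 cells the gate difference was 1.13 percentage points in 2i and 0.836 in N2B27.

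Gene by gene, the ratio of mean CPM in small to that in ungated cells was above 1 for most members. All values that follow are log2 ratios with a pseudocount of 1 CPM on both means, and a gene is called higher or lower at a ratio of at least 1.5. In 2i the median over the 76 members was 0.57, against -0.29 over all 8346 genes past the level filter, with 58 members higher and 18 lower. Of these, 38 were called higher and 2 lower. Of all genes, 38.9% had any ratio above 1, 21.0% were called higher and 38.1% lower. In N2B27 the median was 0.37 against -0.05, with 64 members higher and 12 lower, 22 called higher and 3 called lower. There 47.5% of all genes had a ratio above 1, 23.1% were called higher and 26.4% lower. On DESeq2 size factors, which rest on 1227 genes with a count in every kept cell, 70 of them members, the medians were 0.96 in 2i and 0.29 in N2B27, against -0.39 and -0.12 over all genes. The 2i small cell with the highest ERCC share had a size factor of 0.133, against a median of 1.53 in its group. Counts are divided by this factor, so that cell weighs more in the 2i small means than on CPM. With means of log2 values in place of means of CPM, 33 members were called higher and 12 lower in 2i, and 17 and 6 in N2B27. The medians were then 0.34 and 0.24, against -1.17 and -0.64 over all genes. Whichever single cell was left out, 30 of the 38 members called higher in 2i and 18 of the 22 in N2B27 stayed past the limit.

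The gap to other genes of the same level varied with the level. Between 100 and 1000 CPM, the 40 members had a median of 0.84 in 2i and 0.47 in N2B27, against -0.16 and -0.06 over the 2158 genes of that level. Between 10 and 100 CPM, the 25 members had 0.09 and 0.23, with 13 and 19 of them higher, against -0.37 and -0.05 over 6082 genes. Over 1000 CPM, the 11 members had 0.43 and 0.48, against 0.06 and -0.01 over 106 genes. In both media 56 of 76 members, or 73.7%, were higher in small cells, against 24.7% of all genes, while 10 were lower in both and 10 differed in direction. Both media called 20 members higher, or 26.3%, against 8.83% of all genes, and 1 member, Rpl9, was called lower in both, against 14.4% of all genes. With a single cell left out, Rpl9 was as high as -0.49 in 2i and -0.57 in N2B27, both short of the limit.

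By subunit, 27 of 31 small subunit genes were higher in small cells in each medium, with 19 called higher in 2i and 11 in N2B27 and medians of 0.89 and 0.46. Of 42 large subunit genes 29 were higher in 2i and 34 in N2B27, with 17 and 11 called higher and medians of 0.30 and 0.31. The share called higher over all genes was 21.0% in 2i and 23.1% in N2B27. Of the stalk proteins, Rplp1 and Rplp2, the acidic proteins that reach out to the translation factors, had log2 ratios of 0.69 and 0.61 in 2i and 0.28 and 0.42 in N2B27. Rplp0, whose copies held more counts than its own row, had -0.06 and 0.14 on that row.

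The highest ratios belonged to genes of short proteins. Rps21, a small subunit protein with a single near-identical copy, which is not a row of the tables, had 96.1 CPM in the lowest, 263 in the median and 3450 in the highest 2i small cell. In 2i ungated cells it had 75.8, 117 and 156 CPM, so that the ranges overlapped and the high end was held by small cells. In N2B27 small cells it had 87.4, 236 and 737 CPM, and in N2B27 ungated cells 92.0, 170 and 292. Its log2 ratio was 2.20 in 2i and 0.92 in N2B27. Without the cell at 3450 CPM, which is the cell with the highest ERCC share, the ratio in 2i was 1.22.

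Rpl35, a large subunit protein near the tunnel exit, had log2 ratios of 1.94 in 2i and 1.47 in N2B27, the highest in N2B27. Its median was 48.7 CPM in 2i small, 23.3 in 2i ungated, 59.1 in N2B27 small and 32.1 in N2B27 ungated cells. The highest ungated cells, at 39.3 and 53.0 CPM, lay below the small medians in both media. With its copies, which held 94.7% of the combined counts, the ratios were 1.31 and 1.20.

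Rpl37 followed with 1.78 and 0.96, Rps27l with 1.65 and 0.90 and Rps15a with 1.64 and 0.63. Rpl39l, Rps29 and Rps28 completed the 5 highest in N2B27, with 1.15, 0.99 and 0.98. For Rps27l, a paralog of Rps27 that p53 induces, the medians were 940, 492, 853 and 681 CPM in small and ungated cells in 2i and small and ungated cells in N2B27. The single highest 2i small cell, again that with the highest ERCC share, reached 7043 CPM, and without it the ratio in 2i was 1.15. For Rps15a that cell held 2515 CPM, and the ratio without it was 1.03.

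The lowest ratios belonged to genes whose counts lay mostly on copies. Rpl3, a large protein that reaches toward the peptidyl transferase centre, had -1.63 in 2i and -0.02 in N2B27. It had medians of 11.2 CPM in 2i small and 45.1 in 2i ungated cells, with ranges of 0.375 to 54.1 and 10.9 to 201. With its copies, chief among them Rpl3-ps1 with 1492 CPM against 44.2 on Rpl3 itself, its ratio in 2i was 0.00. Rps12 had -0.56 in 2i and -1.13 in N2B27, and 0.37 and -0.01 with its copies. Rpl9 had -0.60 and -0.68, and 0.47 and 0.25 with its copies. Rpl11, which binds MDM2 when it is not built into ribosomes, had -0.11 and -0.74, and 0.91 and 0.33 with its copies.

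Rpl15 and Rpl29 were also among the 5 lowest in 2i, with -0.48 and -0.46, and Rpl29 and Rps2 among those in N2B27, with -0.31 and -0.21. With each member and its copies summed, 0 members were called lower in either medium, 49 were called higher in 2i and 22 in N2B27, and the medians over all 80 were 0.83 and 0.41. The copies on their own, 171 past the level filter, had medians of 0.69 and 0.35, with 100 and 48 called higher and 3 and 1 called lower. Beside these counts, 21.0% of all genes in 2i and 23.1% in N2B27 were called higher, and 38.1% and 26.4% lower. Rpl3, Rpl9, Rps12 and Rpl11 are all the members called lower in either medium.

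**Figure D4:**
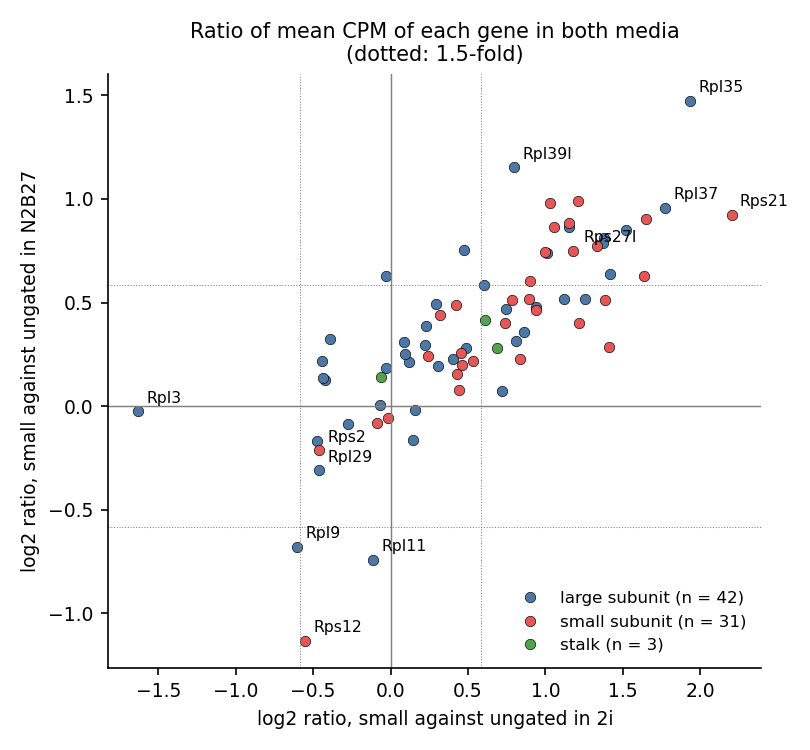
Log2 ratio of mean CPM in small against ungated cells in 2i (horizontal axis) and in N2B27 (vertical axis) for the 76 genes past the level filter, by subunit, with dotted lines at 1.5-fold. Most genes lie in the upper right part (56 of 76), with Rps21 and Rpl35 farthest out and Rpl3, Rpl9, Rpl11 and Rps12 at the low end.

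The ratios were lower for longer proteins. Across the 76 members, the Spearman coefficient of the log2 ratio with coding length was -0.60 in 2i and -0.58 in N2B27, and with the copies summed -0.60 and -0.66. Of the 25 members with coding sequences under 400 bases, 24 were higher in small cells in 2i and 25 in N2B27, 22 and 15 were called higher and the medians were 1.16 and 0.75. Of the 51 longer members, 34 and 39 were higher, 16 and 7 were called higher, and the medians were 0.32 and 0.25. The 400-base limit was set after the values were seen.

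Short protein-coding genes other than the members also had positive medians. Only the members were left out of this comparison, so its short genes include 12 mitochondrial ribosomal protein genes. Among 392 other protein-coding genes with coding sequences under 400 bases, the median was 0.40 in 2i and 0.36 in N2B27, with 41.1% and 34.9% called higher. Among 7086 longer ones the medians were -0.39 and -0.11, with 17.95% and 22.4% called higher. At 100 CPM or more, 165 short other genes had medians of 0.58 and 0.47, and the 16 short members 1.17 and 0.78. At that level 1799 longer other genes had -0.28 and -0.14, and the 35 longer members 0.47 and 0.36. The members thus had the higher median in each class of length. The calls did not all follow, since in N2B27 13.7% of longer members were called higher, below the 22.4% of longer other genes. At 100 CPM or more these were 17.1% and 10.9%. In 2i 31.4% of longer members were called higher, and of short members 88.0% in 2i and 60.0% in N2B27. The part of transcript length in the ratios was not tested.

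**Figure D5:**
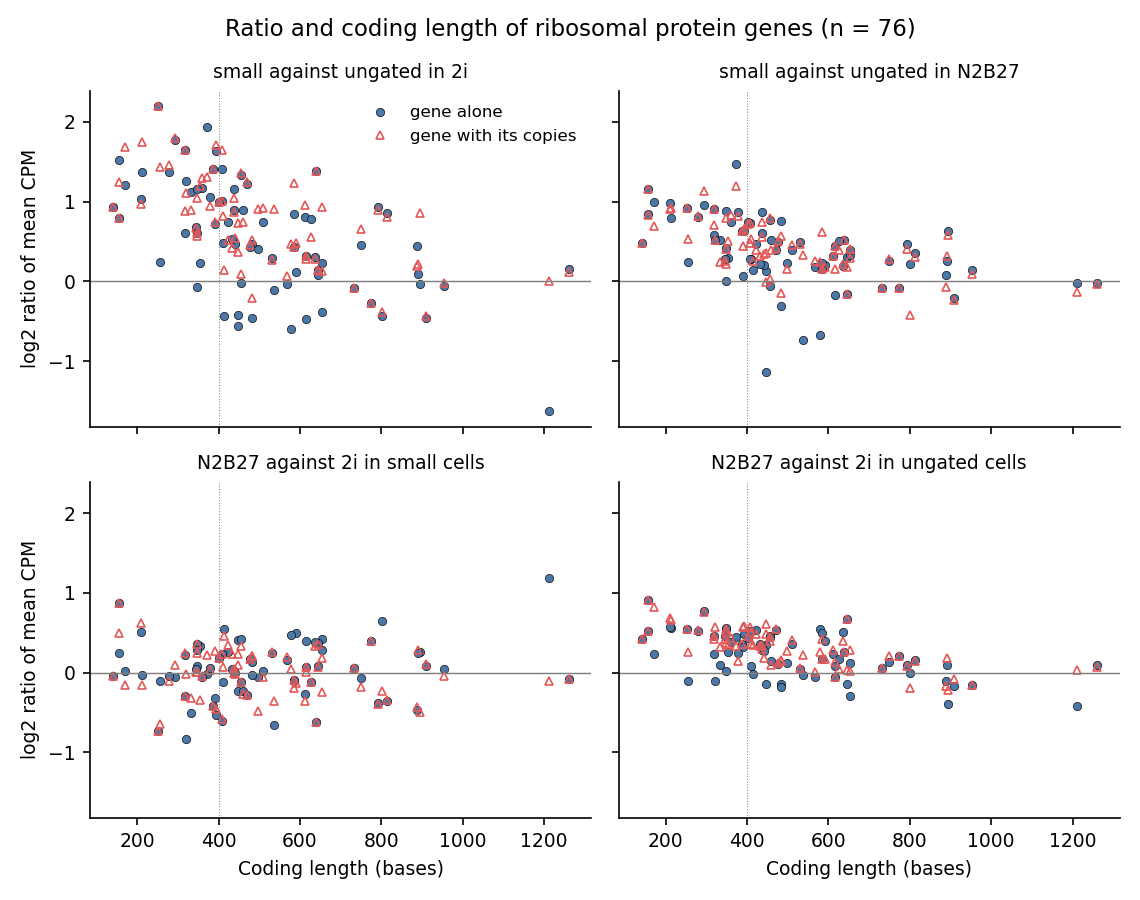
Log2 ratio of mean CPM against coding length in bases for the 76 genes past the level filter in the 4 comparisons, for each gene alone (circles) and with its copies (triangles), with a dotted line at 400 bases. The ratios are lower at greater length in both gate comparisons (Spearman -0.60 and -0.58) and in ungated cells between media (-0.54), and not in small cells between media (0.13).

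Between media the median share was higher in N2B27 than in 2i by 0.211 percentage points in small cells and by 0.450 in ungated cells. Of 20 N2B27 small cells 13 lay above the 2i small median and 0 above the highest 2i small cell. Of 21 N2B27 ungated cells 18 lay above the 2i ungated median and 5 above the highest 2i ungated cell. The small-cell difference was -0.0583 percentage points between means and 0.0218 with all 96 cells, so that its sign depended on the summary.

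In small cells the median log2 ratio of N2B27 to 2i was 0.03 against 0.16 over all genes. There 42 members were higher and 34 lower, 3 were called higher and 5 lower, while 57.0% of all genes had a ratio above 1, 33.5% were called higher and 20.5% lower. On DESeq2 size factors the direction turned, with a median of -0.39, 23 of 76 members higher, 4 called higher and 32 called lower. The 2i small cell with the highest ERCC share had the lowest size factor of its group, 0.133, and its part in this turn was not tested. On CPM and without the pair of 2i small cells that stood apart, the median was 0.15, with 5 called higher and 1 lower. The members called higher were Rpl3 (1.19), Rpl39l (0.88) and Rpl7a (0.65), followed by Rpl28 (0.55) and Rps28 (0.51). Rpl3 had almost equal medians in both groups, 11.2 CPM in 2i and 11.4 in N2B27, with 54.1 and 229 CPM in the highest cells, and its ratio was 0.83 without the highest N2B27 cell. Without a single cell Rpl39l was as low as 0.45 and Rpl7a as low as 0.53, both short of the limit. Those called lower included Rpl36a (-0.84), Rps21 (-0.73), Rpl11 (-0.65) and Rps19 (-0.62). Each of these calls rested on single cells, and 0 of the 5 members called lower stayed past the limit whichever cell was left out. For Rpl36a the highest 2i small cell stood at 380 CPM against a median of 24.3, and without it the ratio was -0.11. The ratio of Rps21 was 0.26 without its 2i small cell at 3450 CPM, and that of Rps19, a core protein of the small subunit, -0.37 without the cell at 2131 CPM. For both genes this was the cell with the highest ERCC share. Rpl11 was as high as -0.50 with a single cell left out. With each member and its copies summed, the median over all 80 was -0.01, and Rpl36a had -0.01 and Rpl3 -0.11.

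In ungated cells the median was 0.24 against 0.02 over all genes, with 59 members higher and 17 lower, 3 called higher and 0 called lower. Of all genes 51.2% had a ratio above 1, 16.5% were called higher and 17.3% lower. The members called higher were Rpl39 (0.91), Rpl37 (0.77) and Rpl10l (0.67), with Rps28 (0.57) and Rps26 (0.56) next. With any single cell left out, Rpl39 and Rpl37 stayed past the limit and Rpl10l was as low as 0.52. Rpl39, one of the shortest proteins of the large subunit, had 91.3 CPM at the median of 2i ungated cells (44.9 to 161) and 164 in N2B27 ungated cells (104 to 322). The lowest were Rpl3 (-0.42), Rpl5 (-0.40), Rpl10a (-0.30), Rpl29 (-0.18) and Rps2 (-0.17). The coefficient with coding length was -0.54, and 0.13 in small cells.

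By the counts on their own rows, which leave out the copies of the parent genes, the paralogs of single members were not all minor. Per kb of transcript, Rps27l had a mean level of 1718 CPM and Rps27 97.0, where Rps27 had 95.6% of its combined counts on copies and Rps27l has no copy. Rpl10l, an intronless gene that stands in for Rpl10 in male germ cells, had 122 CPM per kb of transcript and Rpl10 62.5, with 83.2% of the Rpl10 counts on copies. Rpl10l was uneven, with a count in 60 of 75 cells and medians of 0.833, 53.2, 0.902 and 169 CPM in small and ungated cells in 2i and small and ungated cells in N2B27. In the same order Rpl39l had medians of 0.116, 0.395, 28.8 and 8.69 CPM with a count in 47 of 75 cells and reached 397 CPM, and Rpl39 medians of 184, 91.3, 273 and 164 CPM. Rpl3l had a count in 5 of 75 cells, with 502, 243, 13 and 0 counts in the 4 groups in that order. Rps4x, the form of Rps4 on chromosome X, had a mean of 851 CPM, and its paralog Rps4l was not analysed here.

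Unlike the pseudogenes shown above, the paralogs Rpl39l and Rps27l differ from their parents at many coding bases. The other paralogs were not set beside their parents in this way. Shown are the whole coding sequences of Rpl39 and Rpl39l and the first 160 bases of Rps27 and Rps27l, with differing bases in capitals. The first pair shared 133 of 156 bases, and the second 122 of 160. On GRCm38 they lie at chrX:37082520-37085402, chr16:10170226-10174911, chr3:90212522-90213651 and chr9:66946086-66949516, on the minus, plus, minus and plus strand.
Rpl39: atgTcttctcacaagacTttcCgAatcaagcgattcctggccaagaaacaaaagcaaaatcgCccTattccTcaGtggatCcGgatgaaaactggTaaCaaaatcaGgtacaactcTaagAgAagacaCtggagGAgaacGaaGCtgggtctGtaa
Rpl39l: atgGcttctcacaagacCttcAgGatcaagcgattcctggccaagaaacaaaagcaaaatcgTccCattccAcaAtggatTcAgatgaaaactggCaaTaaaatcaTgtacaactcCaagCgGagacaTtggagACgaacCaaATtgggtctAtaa
Rps27: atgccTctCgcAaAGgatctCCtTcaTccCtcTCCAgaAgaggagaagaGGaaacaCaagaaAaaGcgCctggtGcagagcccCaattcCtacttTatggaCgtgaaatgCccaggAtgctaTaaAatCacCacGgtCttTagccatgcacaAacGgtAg
Rps27l: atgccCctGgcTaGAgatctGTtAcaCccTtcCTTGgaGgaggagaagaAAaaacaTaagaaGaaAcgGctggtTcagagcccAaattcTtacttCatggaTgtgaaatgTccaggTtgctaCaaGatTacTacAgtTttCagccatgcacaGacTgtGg

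Over the cells of a group, the coefficient of variation of CPM, averaged over the 4 groups, was smallest for Rpl6 (0.244), with Rplp0 (0.265) among the 3 smallest. It was largest for Rpl39l (1.68), Rpl10l (1.47) and Rps12 (1.27). Rpsa, the laminin receptor precursor and a small subunit protein, had medians of 696, 710, 593 and 655 CPM in small and ungated cells in 2i and small and ungated cells in N2B27. Rps6, the target of the S6 kinases, had 44.4, 40.3, 42.8 and 39.4 CPM, with 96.5% of its combined counts on copies. With copies, their log2 gate ratios were 0.20 and -0.07 for Rpsa and 0.66 and 0.27 for Rps6 in 2i and N2B27.

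Most members ran with the rest of the family from cell to cell within a group. The Spearman coefficient of a member's CPM with the summed CPM of all other members had a median of 0.37, 0.39, 0.35 and 0.36 in small and ungated cells in 2i and small and ungated cells in N2B27, over 12, 22, 20 and 21 cells. Over 7480 other protein-coding genes the medians were -0.22, -0.04, -0.15 and -0.04. Of 76 members 55, 64, 54 and 65 lay above 0, against 23.3%, 41.9%, 28.8% and 42.5% of the other genes. Only 36, 25, 30 and 20 members lay over 0.5, against 1.70%, 0.67%, 0.84% and 0.74% of the other genes. The lowest members had -0.51, -0.40, -0.54 and -0.34. Large and small subunit shares followed each other with Spearman coefficients of 0.73, 0.90, 0.91 and 0.89. These values describe cells that share a lane and a denominator.

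Related lists had lower gate medians than the members (0.57 in 2i and 0.37 in N2B27), apart from named pseudogenes in 2i. The other TOP genes of translation, elongation and initiation factors and partners such as Eef1a1 and Npm1, had medians of 0.18 and -0.04 in 2i and N2B27 for the gate, with 1 of 14 called higher in each medium and 1 and 0 called lower. In 2i these were Eef1b2, an exchange factor for Eef1a1, called higher (0.63), and Eef2, the translocase, called lower (-1.08), and in N2B27 Pabpc1, the poly(A) binding protein, called higher (1.23). Ribosome components outside the naming rule, 6 of 7 past the filter, had medians of 0.30 and 0.08, with Rpl36al called higher in 2i (0.79) and Fau in N2B27 (0.88). The 76 of 78 mitochondrial ribosomal protein genes past the filter had medians of 0.11 and 0.26. Of these, 21 were called higher in each medium and 9 and 8 lower. The 64 with coding sequences of 400 bases or more had medians of 0.10 and 0.24, against 0.32 and 0.25 for such members. The 12 shorter ones had 0.42 and 0.35, against 1.16 and 0.75 for short members. At 100 CPM or more, 21.6% of the longer mitochondrial ribosomal genes were called higher in 2i, against 42.9% of longer members. In N2B27 these were 29.7% and 17.1%. The part of coding length in the gap between lists was not tested. Named pseudogenes, 79 of 268 past the filter, had medians of 0.61 and 0.27, with 42 and 14 called higher and 1 and 0 called lower. Of all genes, 21.0% in 2i and 23.1% in N2B27 were called higher and 38.1% and 26.4% lower.

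Between media, the other TOP genes had medians of -0.14 in small and -0.13 in ungated cells, with 1 and 0 of 14 called higher and 2 and 1 called lower. Of all genes, 33.5% in small and 16.5% in ungated cells were called higher and 20.5% and 17.3% lower. Components outside the rule had -0.03 and 0.23, mitochondrial ribosomal protein genes 0.16 and 0.11 and named pseudogenes -0.02 and 0.26. The regulators Mtor, Rptor, Larp1, Rps6kb1, Eif4ebp1, Eif4ebp2, Tsc1 and Tsc2 all passed the filter. Apart from Eif4ebp1, they had medians at or below 54.5 CPM in every group and at or below 0.894 CPM in both groups of small cells. Of these 8, in 2i 3 were called higher in small cells and 3 lower, and in N2B27 4 and 2. Over all genes 21.0% were called higher and 38.1% lower in 2i, and 23.1% and 26.4% in N2B27. These calls rest on means, such as 52.5 CPM for Mtor in 2i small cells at a median of 0. Eif4ebp1, the inhibitor of cap binding that mTOR phosphorylates, had medians of 1048, 1126, 798 and 1231 CPM in small and ungated cells in 2i and small and ungated cells in N2B27, with log2 gate ratios of 0.07 and -0.45.

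Start sites were looked up in RefSeq windows of GRCm38.p6, from 250 bases before to 50 after each annotated start, which held 72 windows of 60 of the 80 members. In 63.3% of these genes a window had, within 10 bases of the start, a C followed by at least 4 bases that were each C or T. By window it was 55.6% of 72, against 29.7% of all 32851 windows. CCGGAAG, searched on both strands, was in 36.1% of member windows and 8.86% of all windows, GGGCGG on both strands in 58.3% and 35.7%, and TATAAA on both strands in 8.33% and 13.6%. The start windows of members among the 5 highest in both gate comparisons (Rpl35, Rpl37) and among the 5 lowest in both (Rpl9, Rps12) are shown, from 15 bases before to 15 from the start, with the longest run of C and T in capitals. Rpl29, also among the lowest in both, was not matched.
Rpl35: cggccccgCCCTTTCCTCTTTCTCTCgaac
Rpl37: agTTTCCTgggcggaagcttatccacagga
Rpl9: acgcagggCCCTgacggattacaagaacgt
Rps12: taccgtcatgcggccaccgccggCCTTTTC

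These are chr2:39005117-39005146 on the minus strand, chr15:5116598-5116627 on the plus strand, chr5:65391417-65391446 on the minus strand and chr10:23787195-23787224 on the minus strand. The longest run within the bases shown was 18 bases in Rpl35, 6 in Rpl37, 4 in Rpl9 and 7 in Rps12. That of Rps12 reaches the last base shown and may be longer. A match describes letters around an annotated start and is neither a mapped TOP tract nor a factor's site.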

How the data were processed

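Per the labels and the study's methods, the authors aligned paired-end Smart-seq2 reads to GRCm38/mm10 with GSNAP (2015-09-29), after Trim Galore 0.4.4 in the submitters' processing notes, and deposited HTSeq read counts per gene, not normalized, for 48 cells per medium. The treatment of reads with several equal matches is not given in the sources used here. Of all counts, 72.4% fell on mouse genes, 3.85% on 92 ERCC spike-ins, 6.77% were ambiguous, 4.81% on no feature, 11.1% not aligned and 1.09% of low alignment quality. Rows without a gene were left out of totals. Columns were matched to samples through the authors' list of sequencing runs.

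Cells were left out beyond 3 median absolute deviations of their library pool, for a low total count, few genes detected or a high mitochondrial share. The limits were 307960 counts, 4435 genes and 5.16% in 2i, and 1250614 counts, 5316 genes and 4.67% in N2B27. They were thus looser in 2i. Counts were scaled to CPM over mouse genes, and log2 ratios of group means took a pseudocount of 1 CPM, over genes with a mean of at least 10 CPM. Copies were found with blastn 2.17.0. Phases came from cyclone (scran 1.30.0) and size factors, an alternative, from DESeq2 1.42.0, in R 4.3.3. Other steps used Python 3.11.15 with pandas 2.3.3, numpy 2.4.6 and scipy 1.17.1. The ratio step was tested on simulated data. The kept cells held 1364155 to 4844170 counts on mouse genes, and counts are reads, so intervals cover counting error only. Named genes are the 5 highest and 5 lowest members per comparison and per kb, those below the filter, paralogs, stalk proteins, Rpsa, Rps6, the extremes of variation and members sharing exon bases. Some genes that this rule names are not reported here. Members and lists were chosen with earlier results of these data known. Alternatives covered the cell filter, denominator, member list, phase, scale, summary, pseudocount and level filter. Those that rest on copies or leave out single cells, and the 400-base limit, were chosen after seeing the data.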

Additional observations from a re-analysis of the deposited data

How the results depend on the processing

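No paired analysis was possible because each group is 1 sample and no result comes from a test. Of the alternative values, 151 kept their direction and lay within the limits set for a change, 100 moved and 5 reversed; the cause was not tested. Values are given below in the order small against ungated in 2i, the same in N2B27, N2B27 against 2i in small cells and in ungated cells, and comparisons not named stayed within those limits.

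The difference in median share, 0.931, 0.692, 0.211 and 0.450 percentage points, was 1.13, 0.836, 0.0218 and 0.316 with no filter on cells. With fixed limits on cells it was 0.947, 0.836 and, in ungated cells between media, 0.316. Without mitochondrial genes in the total it was 1.003, 0.724, 0.155 and 0.435. With the components outside the rule it was 0.996, 0.752, 0.177 and 0.421, and over the 23 members without a named pseudogene 0.459, 0.318, 0.0634 and 0.205. Within S phase it was 0.838, 0.640, 0.279 and 0.477, between means 1.38, 0.943, -0.0583 and 0.381, and from pooled counts 1.19, 0.862, 0.0520 and 0.379. Without the pair of 2i small cells that stood apart it was 0.900 in 2i and 0.241 in small cells between media. For members and copies it was 2.52, 2.10, 0.592 and 1.02, and without that pair 2.30, 2.10, 0.814 and 1.02.

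The median log2 ratio of members, 0.57, 0.37, 0.03 and 0.24, reversed in small cells between media with no filter on cells (-0.051), on DESeq2 size factors (-0.39), over members without a named pseudogene (-0.043) and with copies (-0.0062), and was 0.15 there without the pair that stood apart. It was 0.96 in 2i on DESeq2 size factors, 0.50 in N2B27 with fixed limits and 0.24 there from means of log2 values, and 0.45 in ungated cells between media over members without a named pseudogene.

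Members called higher, 38, 22, 3 and 3 of 76, were 13, 8 and 1 of the 21 past the filter without a named pseudogene in the first 3 comparisons and 4, 2, 1 and 0 of the 7 without a copy. Within S phase they were 23 in 2i, 13 in small and 12 in ungated cells between media. In small cells between media they were 8 with no filter on cells, 5 without the pair that stood apart, 7 from means of log2 values and 0 at a level of 50 CPM. In ungated cells between media they were 8 with no filter, 5 with fixed limits, 5 from pooled counts, and 9 with copies, with or without that pair.

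Members called lower, 2, 3, 5 and 0, were in 2i 4 with no filter on cells, 0 without members with a named pseudogene, 6 in S phase, 5 on DESeq2 size factors, 12 from means of log2 values, 1 from pooled counts, 1 with a pseudocount of 5 CPM, and 0 at 50 CPM, with copies or without members with a copy. In N2B27 they were 1 over members without a named pseudogene, 5 in S phase, 6 from means of log2 values and 0 at 50 CPM, with copies or without members with a copy. In small cells between media they were 10 with no filter, 3 with fixed limits, 1 without the pair that stood apart, 3 over members without a named pseudogene, 32 on DESeq2 size factors, 0 from means of log2 values, 1 from pooled counts, 8 with no level filter, 3 at 50 CPM, 1 without members with a copy and 1 with copies but without the pair. In ungated cells between media they were 2 in S phase, 2 from means of log2 values, 2 with no level filter and 1 with copies, with or without the pair.

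The Spearman coefficient of share and ERCC share was 0.35 in 2i small and 0.47 in N2B27 small cells without the 2 cells farthest from the median ERCC share. Depth was over 1000000 counts in every kept cell, so counting error was small beside the spread between cells, but with 1 sample in each group that spread does not stand for the error of a repeat. The alternatives that rest on copies, and that without the 2 cells farthest in ERCC share, were chosen after seeing the data, as was leaving out each cell in turn, after which 30, 18, 1 and 2 members stayed called higher and 1, 2, 0 and 0 lower whichever cell was left out.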
